A study of Mus musculus with 16 samples.

Results

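The comparison described here set 3 mouse hearts lacking both CPT2 and USP30 against 3 hearts lacking CPT2 alone, across all genes. These 6 samples, of 16 in the whole series, were taken by their genotype labels. The single KO hearts (genotype CPT2H-KO) carry a cardiomyocyte-specific deletion of carnitine palmitoyltransferase 2, and the double KO hearts (genotype CPT2/USP30H-KO) carry that deletion and loss of cardiac USP30. The companion USP30H-KO line was made by crossing Myh6-Cre with USP30 fl/fl mice. Myh6-Cre acts in cardiomyocytes, so other cells of the organ keep the targeted genes. Both groups lack CPT2, and neither a wild type heart nor a heart lacking USP30 alone was profiled beside them in the same table. A further 5 wild type and 5 CPT2H-KO hearts came from a separate count table. They are used below only to choose genes that differ between these groups and to describe that choice. Ages, sexes and litters are not given in the labels. RNA came from whole cardiac samples, so fewer cells of a type and less RNA per cell cannot be told apart in any result below.

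USP30 is a deubiquitinase anchored in the outer mitochondrial membrane and, in part, in peroxisomes. When mitochondria lose membrane potential, the kinase PINK1 accumulates on their surface and ubiquitin chains are built on outer membrane proteins, which recruit autophagy receptors and lead to mitophagy, the removal of the organelle by autophagy. USP30 takes ubiquitin off outer membrane proteins and so restrains this process. CPT2 regenerates long-chain acyl-CoA inside mitochondria, and without it the heart cannot oxidise long-chain fatty acids. The comparison asks what the loss of USP30 changes in such hearts.

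Usp30 (chromosome 5, 114100299 to 114123510, RefSeq annotation of GRCm38.p6) was measured first, since it checks the labels. Its level was 18.5, 22.8 and 21.7 CPM (counts divided by the TMM-scaled library total, times 1e+06) in single KO replicates 1, 2 and 3, and 10.3, 10.4 and 7.45 CPM in double KO replicates 1, 2 and 3. Every double KO heart was below every single KO heart. On the log2 scale, edgeR put double over single KO hearts at -1.16 (SE 0.18, adjusted p = 0.147), and it lay between -1.26 and -0.93 over 17 alternative settings. DESeq2 called it (adjusted p = 2.43e-04). Residual reads are reported for the gene as a whole, since the sources used here do not say which exons were removed. Cpt2, which both groups lack in cardiomyocytes, was at 182, 173 and 164 CPM in single KO and 176, 189 and 166 CPM in double KO hearts, with overlap (0.03, SE 0.14).

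Before the other genes are described, several ways in which single hearts stood apart have to be given. To begin, transcripts of the atria were uneven among the double KO hearts. Myl7, the atrial myosin light chain, stood at 0.0813, 0.0749 and 0.458 CPM in the single KO hearts and at 1.49, 102 and 425 CPM in double KO replicates 1, 2 and 3. Bmp10, a growth factor gene of the right atrium, was at 0.0813, 0.0749 and 0 CPM in the single KO hearts and at 0, 1.24 and 56.7 CPM in the double KO hearts. Mesothelial markers followed the same order, with Upk3b, a gene of the outer heart lining, at 8.05, 1.65 and 3.11 CPM against 3.98, 10.3 and 42.5 CPM. Double KO replicates 2 and 3 were thus the highest in these transcripts. Replicate 1 was far below them but above every single KO heart for Myl7, and also for Myl4, an atrial light chain gene, at 7.39 CPM where the single KO hearts reached 3.50 CPM. The summed level of the atrial list does not follow this order, since it is highest in replicate 1 (8264 CPM), where Nppa alone, a natriuretic peptide gene that stressed ventricles also express, was at 7450.4 CPM. Adipocyte markers summed to 112 CPM in double KO replicate 3 and to at most 14.7 CPM in every other heart. Cfd, 1 of these markers, was at 0, 0.0749 and 0 CPM against 0.0830, 2.57 and 62.8 CPM. Next, Y-linked transcripts summed to 124 and 117 CPM in single KO replicates 1 and 2, and to at most 0.911 CPM in single KO replicate 3 and the 3 double KO hearts. Single KO replicate 3 is therefore the single KO heart that matches the double KO hearts in this respect. The sexes are not labelled, and this difference and the genotype cannot be told apart except through that heart.

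**Figure D1:**
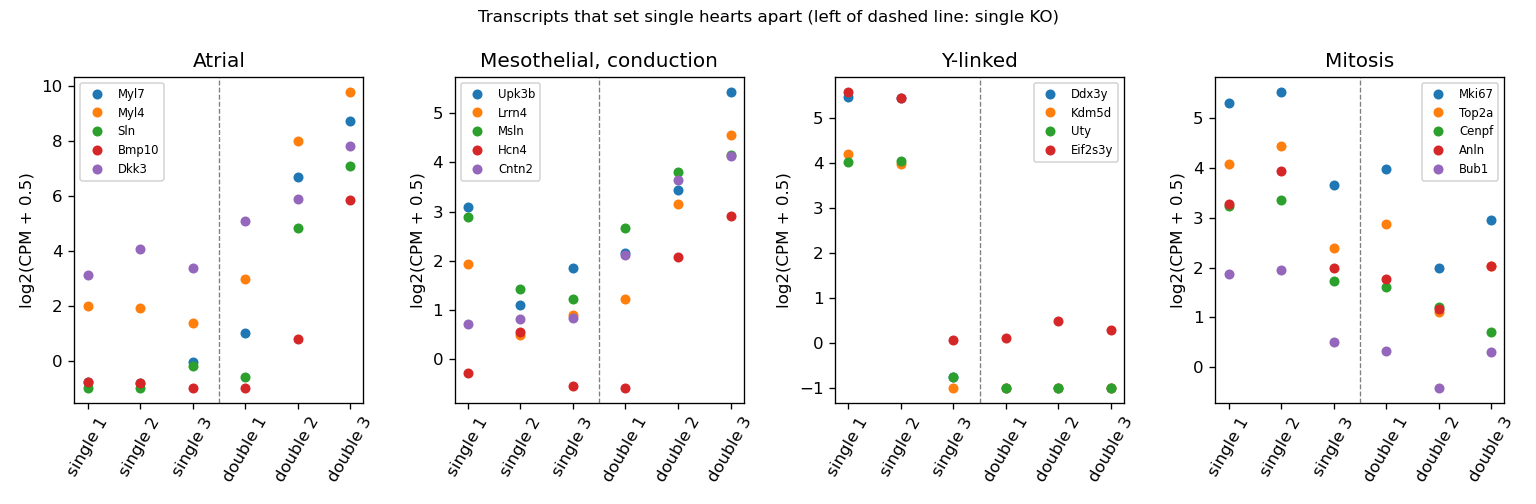
Level of marker transcripts on a log2(CPM + 0.5) scale in each of the 6 hearts, with a colour for each gene. Atrial, mesothelial and conduction transcripts are highest in double KO replicates 2 and 3, Y-linked transcripts are high in single KO replicates 1 and 2, and mitosis transcripts are highest in the same pair of single KO hearts.

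Finally, double KO replicate 1 differed from the other double KO hearts over many genes. Its log2 levels correlated with those of double KO replicates 2 and 3 at 0.961 and 0.960 across genes, where the latter 2 correlated at 0.982. The deviation of this heart from the single KO mean moved with transcript length. For genes whose longest annotated transcript is under 1000 bases its median deviation was 0.37 on the log2(CPM + 0.5) scale, and for those of 8000 bases or more it was -0.26. In double KO replicates 2 and 3 the corresponding medians were 0.08 and -0.01, and -0.11 and -0.04. Across the 12849 genes with a length, the correlation of deviation with log2 length was -0.33 in double KO replicate 1 and between -0.18 and 0.17 in the other 5 hearts. The part of transcript length in the results was not tested. Totals lay between 11067969 and 13532716 counts per heart.

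**Figure D2:**
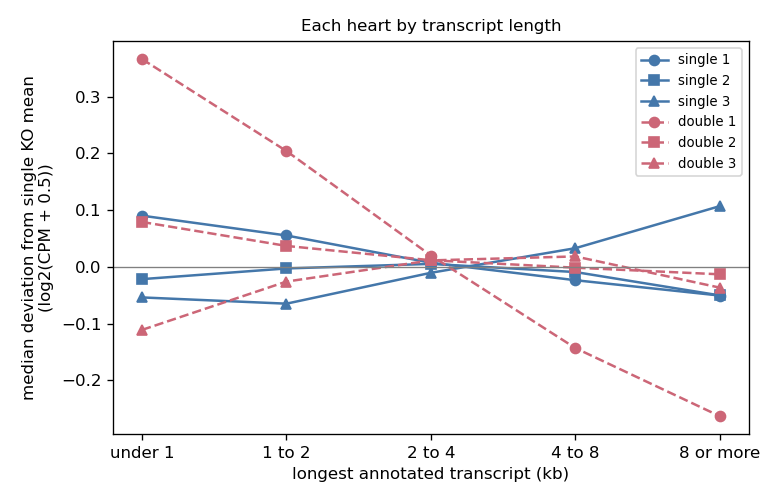
Median deviation of each heart from the single KO mean, on the log2(CPM + 0.5) scale, for genes grouped by the length of their longest annotated transcript in kilobases. Double KO replicate 1 goes from 0.37 for the shortest class to -0.26 for the longest, a wider span than in any of the other 5 hearts.

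Over all genes the hearts separated by group on 1 axis of variance, yet no gene passed the main test. Principal components are the axes of largest variance in log2 CPM. On component 1 (33.8% of variance) double KO replicate 1 was at 37.0, and replicates 2 and 3 were at -27.3 and -23.9. On component 2 (28.8%) the single KO hearts were at -13.5, -21.2 and -26.7. The double KO hearts were there at 27.9, 14.6 and 18.9. edgeR called 0 of 12997 genes at an adjusted p under 0.05 (0.0%), with a lowest adjusted p of 0.127, and limma-voom also called 0. At an unadjusted p under 0.05 edgeR found 592 genes higher (4.55%) and 350 lower (2.69%) in double KO hearts. For 870 genes (6.69%) all 3 double KO hearts lay above all 3 single KO hearts, and for 659 genes (5.07%) all lay below. DESeq2, which estimates the spread of single genes differently, called 84 genes higher (0.646%) and 29 lower (0.223%). What was called depended on the hearts kept. With double KO replicate 1 left out, edgeR called 104 of 13177 genes higher (0.789%) and 10 lower (0.0759%). With replicates 2 and 3 left out, so that replicate 1 stood alone against 3 single KO hearts and was assumed to vary as they do, it called 26 of 13409 genes higher (0.194%) and 10 lower (0.0746%). With the mean of the atrial transcripts as a covariate, which leaves the estimate largely to replicate 1, it called 19 genes higher (0.146%) and 6 lower (0.0462%). These fits share the single KO hearts. Genes below are described by their levels, and "called" is kept for an adjusted p under 0.05 in the named fit. Genes named for the smallest p were taken from those without overlap, so their lack of overlap was set by that choice.

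Fibroblast markers were mostly higher in double KO hearts. Gsn (chromosome 2, 35256359 to 35307902), which encodes the actin-severing protein gelsolin and is abundant in cardiac fibroblasts, stood at 1237, 1343 and 1356 CPM in single KO hearts and at 2642, 2637 and 2804 CPM in double KO hearts. All 3 double KO hearts lay close together and far above the single KO hearts. edgeR put the log2 difference at 1.04 (SE 0.15, adjusted p = 0.127), which ranged from 0.98 to 1.05 over the 17 alternatives. Gsn was called both without double KO replicate 1 (adjusted p = 0.00647) and with that replicate as the sole double KO heart (adjusted p = 0.0476).

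Fbln1 (chromosome 15, 85205949 to 85286294), the gene of the matrix glycoprotein fibulin-1, stood at 75.7, 68.7 and 60.8 CPM in single KO and at 157, 143 and 219 CPM in double KO hearts. The groups did not overlap, and replicate 3 of the double KO group was the highest heart. edgeR put the log2 fold change at 1.34 (SE 0.19, adjusted p = 0.127), and Fbln1 was called both without double KO replicate 1 (1.40, adjusted p = 0.00613) and with replicate 1 alone (1.19, adjusted p = 0.0475). Dcn, which encodes the collagen-binding proteoglycan decorin, was at 499.95, 519.8 and 556 CPM against 1232, 752 and 797 CPM. Here replicate 1 was the highest, so the log2 fold change of 0.82 (SE 0.20, edgeR adjusted p = 0.315) became 1.22 with that replicate alone and 0.56 without it. Dpt, the gene of dermatopontin, another collagen-binding matrix protein, was at 63.1, 43.8 and 49.2 CPM against 90.5, 90.6 and 123 CPM, again without overlap (0.96, SE 0.19). Of the 9 fibroblast markers, 8 had a log2 fold change above 0. An unadjusted p under 0.05 as higher was found for 5, and 4 lay without overlap above the single KO hearts (4.55% and 6.69% over all genes). Fbln1 is not in this list, while Postn, which is, was high in double KO replicate 1 alone. The median of the markers was 0.47 where that of all genes was 0.00. It stayed between 0.35 and 0.67 without double KO replicate 1, without replicates 2 and 3, and without the single KO hearts with Y-linked transcripts.

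Further secreted proteins were among the named genes, and they did not share an order across the double KO hearts. Cytl1, which encodes a small secreted protein of cartilage, had the smallest unadjusted p among the named genes with higher levels. It was at 4.07, 6.21 and 6.23 CPM in single KO and 15.6, 20.04 and 21.2 CPM in double KO hearts, a log2 fold change of 1.78 (SE 0.22, edgeR adjusted p = 0.127). Prg4, whose product lubricates joint surfaces, was at 9.27, 6.89 and 10.9 CPM against 24.6, 38.8 and 65.9 CPM. Its double KO values followed the order of the atrial transcripts, and its log2 fold change of 2.26 (SE 0.34) was 1.44 with double KO replicate 1 as the sole double KO heart. Comp, the gene of cartilage oligomeric matrix protein, was at 2.03, 7.19 and 2.11 CPM against 65.0, 13.0 and 22.2 CPM, with replicate 1 as the highest. Angptl7, a secreted angiopoietin-like gene, showed the same order, at 3.82, 5.24 and 1.65 CPM against 31.0, 12.2 and 17.7 CPM, and it was called without double KO replicate 1 (adjusted p = 0.0362) and with it alone (adjusted p = 0.0378). Myoc, the gene of the extracellular protein myocilin, went with the atrial order instead, from 0.749 to 1.55 CPM in the single KO hearts and 3.90, 10.4 and 13.04 CPM in the double KO hearts.

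Matrix genes as a whole did not move together. Of 30 extracellular matrix and fibrosis genes, 18 had a log2 fold change above 0 and 12 below. An unadjusted p under 0.05 was found for 4 as higher and 3 as lower (4.55% and 2.69% over all genes). Their median was 0.14. The median deviation was 0.57 in double KO replicate 1 and -0.45 and -0.05 in replicates 2 and 3, so it turned to -0.24 without replicate 1. Postn, a gene of activated fibroblasts and a member of the fibroblast list, was high in double KO replicate 1 alone. It was at 146, 237 and 169.6 CPM in single KO and 582, 80.8 and 116 CPM in double KO hearts. Double KO replicates 2 and 3 were thus below every single KO heart. Timp1, an inhibitor of matrix proteases, was at 5.77, 4.27 and 3.94 CPM against 17.9, 5.47 and 8.58 CPM, with double KO replicate 2 inside the single KO range. Tnc, the gene of tenascin-C, a matrix protein of tissue repair, was at 14.4, 14.5 and 13.01 CPM against 9.54, 5.30 and 10.1 CPM, so every double KO heart was below every single KO heart (-0.75, SE 0.24, edgeR adjusted p = 0.491).

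Serpina3n and C4b, members of the inflammation list, were among the genes with the smallest p. Serpina3n (chromosome 12, 104406646 to 104414334), which encodes a secreted serine protease inhibitor induced in inflammation, was at 5.12, 3.82 and 3.85 CPM in single KO hearts and at 23.7, 14.1 and 13.04 CPM in double KO hearts. The lowest double KO heart was far above the highest single KO heart. By edgeR the log2 fold change was 1.99 (SE 0.27, adjusted p = 0.127), from 1.66 to 2.57 over the alternatives, and it was called without double KO replicate 1 (adjusted p = 0.00613), with it alone (adjusted p = 0.0322) and by DESeq2 (adjusted p = 3.65e-07). C4b (chromosome 17, 34728139 to 34743902), the complement component 4 gene, was at 11.0, 16.0 and 10.4 CPM against 31.1, 37.9 and 51.3 CPM. That is a log2 fold change of 1.68 (SE 0.23, edgeR adjusted p = 0.127), with no overlap and the highest value in replicate 3. C3, the central complement component, was different: it stood at 73.4, 22.6 and 37.4 CPM in single KO hearts and at 55.3, 399 and 284 CPM in double KO hearts. It was high in the 2 double KO hearts with atrial transcripts and within the single KO range in replicate 1, and its log2 fold change of 2.47 became 0.31 with replicate 1 alone.

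Of the 16 inflammation and chemokine genes tested, which include Serpina3n, C3 and C4b, 13 had a log2 fold change above 0. An unadjusted p under 0.05 was found for 9 as higher and 0 as lower (4.55% and 2.69% over all genes). Without overlap above the single KO hearts lay 5 (6.69% over all genes). The median was 0.81, and it was 0.79 with double KO replicate 1 as the sole double KO heart and 0.57 without it. Spp1, the gene of osteopontin, was low in every heart, at 0.895, 0.374 and 0.824 CPM against 2.16, 1.57 and 2.43 CPM. Macrophage markers lay above 0 in 10 of 10 cases, but 1 had an unadjusted p under 0.05 (4.55% higher over all genes). That gene was Lyve1, a receptor of resident tissue macrophages and lymphatic vessels, at 8.21, 8.91 and 13.3 CPM against 22.2, 15.2 and 22.4 CPM. Summed over the 10 markers, the single KO hearts were at 373, 255 and 210.2 CPM and the double KO hearts at 493, 326 and 332 CPM, so single KO replicate 1 overlapped the double KO range. Markers of lymphocytes and neutrophils were too few among the tested genes to be described as lists.

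**Figure D3:**
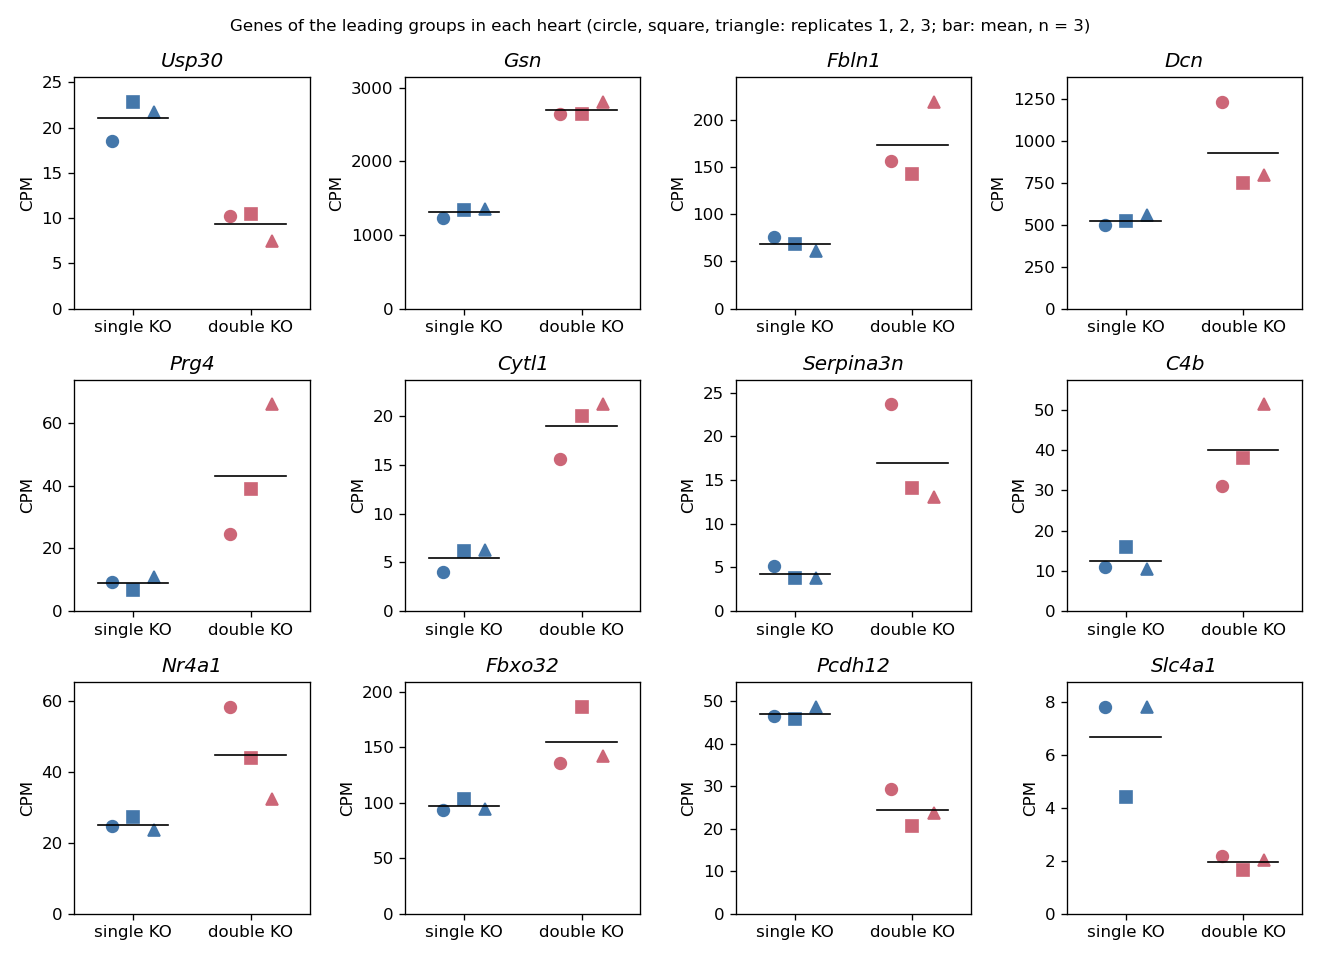
CPM of 12 genes in each single KO heart (blue) and double KO heart (red), with replicates 1, 2 and 3 as circle, square and triangle and the group mean as a bar; each vertical axis starts at 0. The groups do not overlap for any of the 12, most of which were chosen among genes without overlap. Replicates of the double KO group lie closest together, relative to their mean, for Gsn.

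Muscle genes came from several lists. Fbxo32, which encodes the muscle ubiquitin ligase atrogin-1, was at 93.0, 103 and 94.0 CPM in single KO and 136, 186 and 142 CPM in double KO hearts, for which edgeR gave 0.68 (SE 0.16, adjusted p = 0.307). Gadd45a, a growth arrest gene that FOXO factors also induce, was at 10.7, 12.4 and 12.7 CPM against 18.3, 24.6 and 19.9 CPM. Both were without overlap, while Trim63, the related ligase MuRF1, overlapped (112, 151 and 148 CPM against 129, 206 and 172 CPM). In the list of 14 muscle ubiquitin ligase and FOXO target genes, 10 had a log2 fold change above 0. An unadjusted p under 0.05 as higher was found for 2 (4.55% over all genes). The list median of 0.16 turned to -0.17 with double KO replicate 1 as the sole double KO heart. Cacna1g, which encodes a T-type calcium channel, was at 18.3, 21.9 and 14.6 CPM against 32.1, 38.5 and 40.5 CPM (1.02, SE 0.18, edgeR adjusted p = 0.169). Tcap, the gene of the Z-disc protein telethonin, was at 408, 281 and 351 CPM against 546, 642 and 442 CPM.

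Among the genes of lipid use, 16 of 19 PPAR-alpha targets lay above 0, with a median of 0.18. As higher at an unadjusted p under 0.05 there were 2, and 3 lay without overlap above (4.55% and 6.69% over all genes). That median was 0.32 without double KO replicate 1, 0.00 with replicate 1 as the sole double KO heart and -0.11 with the atrial covariate. Ucp3, a mitochondrial carrier gene induced by fatty acids, was at 114, 136 and 99.7 CPM in single KO and 164, 213 and 207 CPM in double KO hearts. Angptl4, an inhibitor of lipoprotein lipase, was even among double KO hearts (97.8, 99.9 and 97.5 CPM) and uneven among single KO hearts (41.2, 91.3 and 33.0 CPM). The gap between the highest single KO heart and the lowest double KO heart was small for Angptl4. Fatty acid oxidation genes themselves were divided, with 11 of 22 above 0, a median of -0.01 and 0 at an unadjusted p under 0.05 in either direction. Of 24 integrated stress response genes, 19 lay above 0 with a median of 0.15 (0.32 without single KO replicates 1 and 2), and the 1 with an unadjusted p under 0.05 was Atf3, a stress-induced transcription factor, which was lower (6.10, 12.0 and 8.34 CPM against 6.31, 4.55 and 5.59 CPM). Immediate early genes were split 8 to 8. Nr4a1, a nuclear receptor of that class, was at 24.7, 27.2 and 23.5 CPM against 58.4, 43.9 and 32.5 CPM and was called with double KO replicate 1 alone (1.21, adjusted p = 0.0417) but not without it (0.60, adjusted p = 0.139).

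The machinery on which USP30 acts showed no gene other than Usp30 with an unadjusted p under 0.05. Of 18 genes of the PINK1 and ubiquitin arm of mitophagy, 6 lay above 0 and 12 below, with a median of -0.08. The median deviation was -0.24 in double KO replicate 1 and 0.09 and 0.04 in replicates 2 and 3, and the list median was 0.04 without replicate 1 and -0.25 with it alone. Pink1, the kinase gene, was at 468, 392 and 379 CPM in single KO and 382, 604 and 432 CPM in double KO hearts, with overlap (0.19, SE 0.20, edgeR adjusted p = 0.894). Sqstm1, the gene of the autophagy receptor p62, was at 569, 649 and 668 CPM against 803, 845 and 638 CPM, with double KO replicate 3 inside the single KO range. With an SE of 0.16 to 0.20 for these 2 genes, a change of that size on the log2 scale was not detectable with 3 hearts in each group.

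Among the deubiquitinase genes, Usp30 was alone in its low p. Of 10 in the list, 3 lay above 0 and 7 below, and of these 10 Usp30 was the 1 without overlap. Usp14, a deubiquitinase of the proteasome, was at 59.5, 58.1 and 77.3 CPM in single KO and 48.3, 48.1 and 60.01 CPM in double KO hearts, and the groups overlapped. Uchl1 was high in double KO replicate 1 alone (27.1 CPM, where the other 5 hearts lay between 9.19 and 12.1 CPM). Mitophagy receptors were 4 above and 7 below 0, core autophagy genes 14 and 10, lysosomal genes 13 and 4, and genes of peroxisome formation and turnover 5 and 11, each with 0 at an unadjusted p under 0.05. Tomm22, a receptor of the outer membrane import pore, was at 84.6, 86.6 and 85.1 CPM against 78.7, 70.3 and 72.4 CPM and was without overlap, but edgeR gave -0.21 (SE 0.13, adjusted p = 0.797). Tomm20, another receptor of that pore and a known substrate of USP30, was at 125, 126 and 126 CPM against 117, 129.9 and 108 CPM.

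Genes of mitochondrial shape and the respiratory chain deviated most from the single KO mean in double KO replicate 1. Of 12 fusion and fission genes, 11 lay below 0 with a median of -0.13, but the median deviation was -0.38 in double KO replicate 1 and 0.03 and -0.03 in replicates 2 and 3. Opa1, which encodes the fusion GTPase of the inner membrane, was at 238, 254 and 353 CPM in single KO and 124, 265 and 246 CPM in double KO hearts. Mfn2, its partner in the outer membrane, was at 945, 1187 and 1202 CPM against 624, 1208 and 1156 CPM. Both were low in replicate 1 alone. Nuclear subunits of complex I went the other way: 33 of 36 lay above 0 with a median of 0.12, and the median deviation was 0.35, 0.17 and -0.13 in double KO replicates 1, 2 and 3. For complexes II to V it was 32 of 39, a median of 0.11, and 0.27, 0.16 and -0.07. Cox6a2, the heart and muscle isoform of a cytochrome oxidase subunit, was at 2343, 2077 and 2085 CPM against 3433, 2544 and 2402 CPM. In both lists 0 genes had an unadjusted p under 0.05. Short transcripts were high over all genes in double KO replicate 1, and the part of transcript length in these lists was not tested.

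Some further genes among the smallest p belonged to none of the lists with higher levels described above. Stk32b, a serine/threonine kinase gene, was at 0.732, 0.898 and 0.916 CPM in single KO and 3.57, 3.40 and 3.24 CPM in double KO hearts. Its log2 fold change of 1.99 stayed between 1.87 and 2.08 over the alternatives. Itgb4, the integrin beta 4 gene, was at 5.21, 4.79 and 4.58 CPM against 11.04, 9.36 and 11.7 CPM, between 1.06 and 1.22 over the alternatives. Mgst1, a glutathione transferase gene of microsomal and mitochondrial membranes, was at 9.84, 8.98 and 10.3 CPM against 17.8, 19.5 and 23.6 CPM. Tagln, an actin-binding gene of smooth muscle, was at 24.6, 28.0 and 22.9 CPM against 54.2, 54.8 and 37.98 CPM. None of these 4 overlapped between the groups, which for the first 3 was a condition of their choice. edgeR called none of the 4 (adjusted p of 0.147 to 0.169), while DESeq2 called all 4. On the lower side, Ncapg2, a condensin subunit gene, was at 5.77, 6.74 and 4.95 CPM against 2.07, 1.57 and 2.43 CPM. Papln, the gene of the matrix protein papilin, was at 96.5, 99.5 and 83.5 CPM against 62.1, 41.2 and 52.8 CPM.

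Among the named genes with lower levels, 4 are known from vessels or the tissue around them. Pcdh12, which encodes an endothelial protocadherin, was at 46.5, 45.8 and 48.6 CPM in single KO and 29.2, 20.6 and 23.6 CPM in double KO hearts, for which edgeR gave -0.94 (SE 0.15, adjusted p = 0.156). Cdh5, the endothelial cadherin gene, was at 435, 372 and 343 CPM against 255, 238 and 286 CPM, also without overlap. Car4, a membrane carbonic anhydrase gene expressed in capillaries, was at 31.8, 41.3 and 27.2 CPM against 15.3, 21.2 and 12.3 CPM. Itga1, the collagen receptor subunit integrin alpha 1, was at 73.0, 76.9 and 93.6 CPM against 45.9, 43.3 and 51.3 CPM (-0.79, SE 0.15, edgeR adjusted p = 0.187). The endothelial marker list as a whole lay below 0 in 10 of 10 cases. In it 1 had an unadjusted p under 0.05 and 3 lay without overlap below (2.69% and 5.07% over all genes). Its median was -0.24. That median was -0.03 with double KO replicate 1 as the sole double KO heart and -0.27 without it. Red blood cell markers were below 0 in 8 of 8 cases, and Slc4a1, their anion exchanger gene, was at 7.81, 4.42 and 7.79 CPM against 2.16, 1.66 and 2.02 CPM. Their summed level was 8495, 8135 and 10052 CPM in single KO and 7549, 4560.3 and 7768 CPM in double KO hearts, without overlap, and residual blood in the tissue was not tested. Heat shock and chaperone genes lay below 0 in 14 of 17 cases with a median of -0.28. Of them 4 were lower at an unadjusted p under 0.05 (2.69% over all genes). Without single KO replicates 1 and 2 the median was -0.15, and of those 4 genes Dnajb1 and Hspa1a stood at 0.17 and 0.79. Hsph1, a chaperone gene of that list, was at 57.3, 50.3 and 53.4 CPM against 37.9, 44.6 and 42.8 CPM. Hspa1l, a related gene outside the list, was at 6.43, 6.74 and 7.51 CPM against 2.90, 2.90 and 3.89 CPM.

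Genes of cell division had the lowest list median, and the single KO hearts were not alike in them. All 24 mitosis and proliferation genes lay below 0, with a median of -1.75. At an unadjusted p under 0.05 were 18, but 3 lay without overlap below (2.69% and 5.07% over all genes). Cenpf, a kinetochore gene, was at 8.87, 9.81 and 2.84 CPM in single KO and at 2.57, 1.82 and 1.13 CPM in double KO hearts. Racgap1, a regulator of cytokinesis, was at 8.87, 17.3 and 4.76 CPM against 4.56, 1.74 and 3.24 CPM. In both, single KO replicate 3 stood just above the highest double KO heart and far below the other single KO hearts. Over the list, single KO replicate 3 deviated from the single KO mean by a median of -1.14, where the double KO hearts deviated by -0.79, -1.88 and -1.32. Without single KO replicates 1 and 2, which carry the Y-linked transcripts, the list median was -0.25. Of 25 DNA replication and licensing genes, 23 lay below 0 with a median of -0.50 (-0.08 without the same hearts). Ccne2, the cyclin E2 gene, did not follow single KO replicate 3: it was at 2.93, 2.92 and 3.57 CPM against 1.33, 1.57 and 1.38 CPM, and its log2 fold change was -1.33 without single KO replicates 1 and 2. Rrm1, a ribonucleotide reductase gene, was likewise without overlap at 25.1, 29.3 and 23.0 CPM against 16.0, 16.7 and 19.2 CPM. The part of sex and of single hearts in the proliferation genes was not tested.

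Promoters of cell division genes commonly carry a CCAAT box and a cell cycle homology region (CHR, TTTGAA). The RefSeq windows from 250 bases before to 50 after the annotated start (GRCm38.p6) were searched on both strands for CCAAT and TTTGAA, 2 motifs that do not overlap each other. Over all 32851 windows of this length, 37.4% held CCAAT and 17.9% held TTTGAA. For the 4 mitosis genes with the smallest p (Cenpf, Anln, Bub1 and Racgap1), 3 windows held CCAAT and 3 held TTTGAA, and Cenpf and Racgap1 held both. Those of Cenpf and Racgap1 are shown because they carry the pair, with the matched letters in capitals:

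Cenpf, chr1:189688037-189688336, minus strand: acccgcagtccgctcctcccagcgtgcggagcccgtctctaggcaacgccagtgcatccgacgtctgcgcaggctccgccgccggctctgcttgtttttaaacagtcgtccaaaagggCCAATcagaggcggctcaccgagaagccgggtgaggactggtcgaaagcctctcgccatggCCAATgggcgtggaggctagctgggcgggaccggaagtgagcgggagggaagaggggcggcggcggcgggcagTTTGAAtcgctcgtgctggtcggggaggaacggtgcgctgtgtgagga

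Racgap1, chr15:99651607-99651906, minus strand: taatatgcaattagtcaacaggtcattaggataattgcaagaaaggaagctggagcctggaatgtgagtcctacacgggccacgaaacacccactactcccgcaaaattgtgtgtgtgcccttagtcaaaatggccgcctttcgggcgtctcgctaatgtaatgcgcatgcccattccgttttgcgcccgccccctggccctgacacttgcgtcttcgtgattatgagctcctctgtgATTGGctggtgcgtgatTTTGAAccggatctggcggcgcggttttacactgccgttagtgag

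A match here is a description of letters and does not mark a bound site.

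Of the 18 clock genes, 13 lay above 0, with a median of 0.11. An unadjusted p under 0.05 was found for 5 as higher and 0 as lower (4.55% and 2.69% over all genes). Without overlap above the single KO hearts lay 6 (6.69% over all genes). The 4 with the smallest p are given first. Ciart, a clock-controlled repressor, was at 6.43, 8.46 and 8.70 CPM in single KO and 20.4, 23.1 and 13.8 CPM in double KO hearts (1.28, SE 0.23, edgeR adjusted p = 0.169). Dbp, a transcription factor gene with one of the largest daily swings in many tissues, was at 131, 119.7 and 135 CPM against 210.2, 204 and 194 CPM (0.66, SE 0.13, edgeR adjusted p = 0.227). Nr1d1, which encodes the repressor REV-ERB alpha, was at 99.6, 110.1 and 164 CPM against 176, 197 and 230.0 CPM. Per1, a period gene, was at 91.7, 83.8 and 34.1 CPM against 122, 149 and 109 CPM. None of these 4 overlapped between groups, although single KO replicate 3 stood apart from its group for Nr1d1 and Per1, in opposite directions. DESeq2 called Ciart (adjusted p = 0.00106) and Dbp (adjusted p = 9.41e-04). The time of day at which hearts were taken is not given in the labels, so it cannot be told apart from the genotype.

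The E-box CACGTG, which the clock activators BMAL1 and CLOCK bind, was searched in the same windows. It was present in 7.15% of all windows, and among the 4 clock genes with the smallest p in those of Ciart (3 matches) and of Per1 (1 match, in 1 of its 2 windows), not in those of Dbp and Nr1d1. The windows with a match are shown, with the E-box in capitals:

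Ciart, chr3:95882179-95882478, minus strand: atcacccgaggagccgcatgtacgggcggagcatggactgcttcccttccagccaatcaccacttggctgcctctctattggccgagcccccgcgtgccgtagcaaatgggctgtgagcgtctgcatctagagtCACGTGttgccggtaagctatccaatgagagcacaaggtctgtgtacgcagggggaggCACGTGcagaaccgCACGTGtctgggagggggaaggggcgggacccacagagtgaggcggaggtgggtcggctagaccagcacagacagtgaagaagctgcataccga

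Per1, chr11:69098699-69098998, plus strand: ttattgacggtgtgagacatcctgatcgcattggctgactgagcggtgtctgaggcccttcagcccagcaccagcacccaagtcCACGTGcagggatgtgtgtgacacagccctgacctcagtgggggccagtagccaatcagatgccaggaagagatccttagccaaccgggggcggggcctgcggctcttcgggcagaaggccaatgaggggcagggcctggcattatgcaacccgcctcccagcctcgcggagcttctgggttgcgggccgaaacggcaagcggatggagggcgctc

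The list medians, with different hearts left out, show how far each group of genes rests on the uneven hearts. Atrial, mesothelial and conduction markers had medians of 1.50, 1.98 and 2.36 over all 6 hearts, and of 0.34, 0.11 and -0.38 with double KO replicate 1 as the sole double KO heart. Inflammation, fibroblast and macrophage lists were at 0.79, 0.67 and 0.84 with replicate 1 alone and 0.57, 0.35 and 0.30 without it. Clock (0.07 and 0.15) and integrated stress response lists (0.13 and 0.11) also stayed above 0 in these fits. All single KO hearts are kept in them, and the macrophage list was uneven among those hearts. Its median deviations were 0.49, -0.10 and -0.42 in single KO and 0.89, 0.20 and 0.37 in double KO hearts. Ventricular cardiomyocyte markers had a median of 0.01 over all 6 hearts and of -0.24 with double KO replicate 1 alone. Their median deviations in the double KO hearts were -0.23, 0.21 and -0.26. Myh6, the adult cardiac myosin gene, was at 40063, 46635 and 42681 CPM against 36558, 64979 and 49836 CPM.

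**Figure D4:**
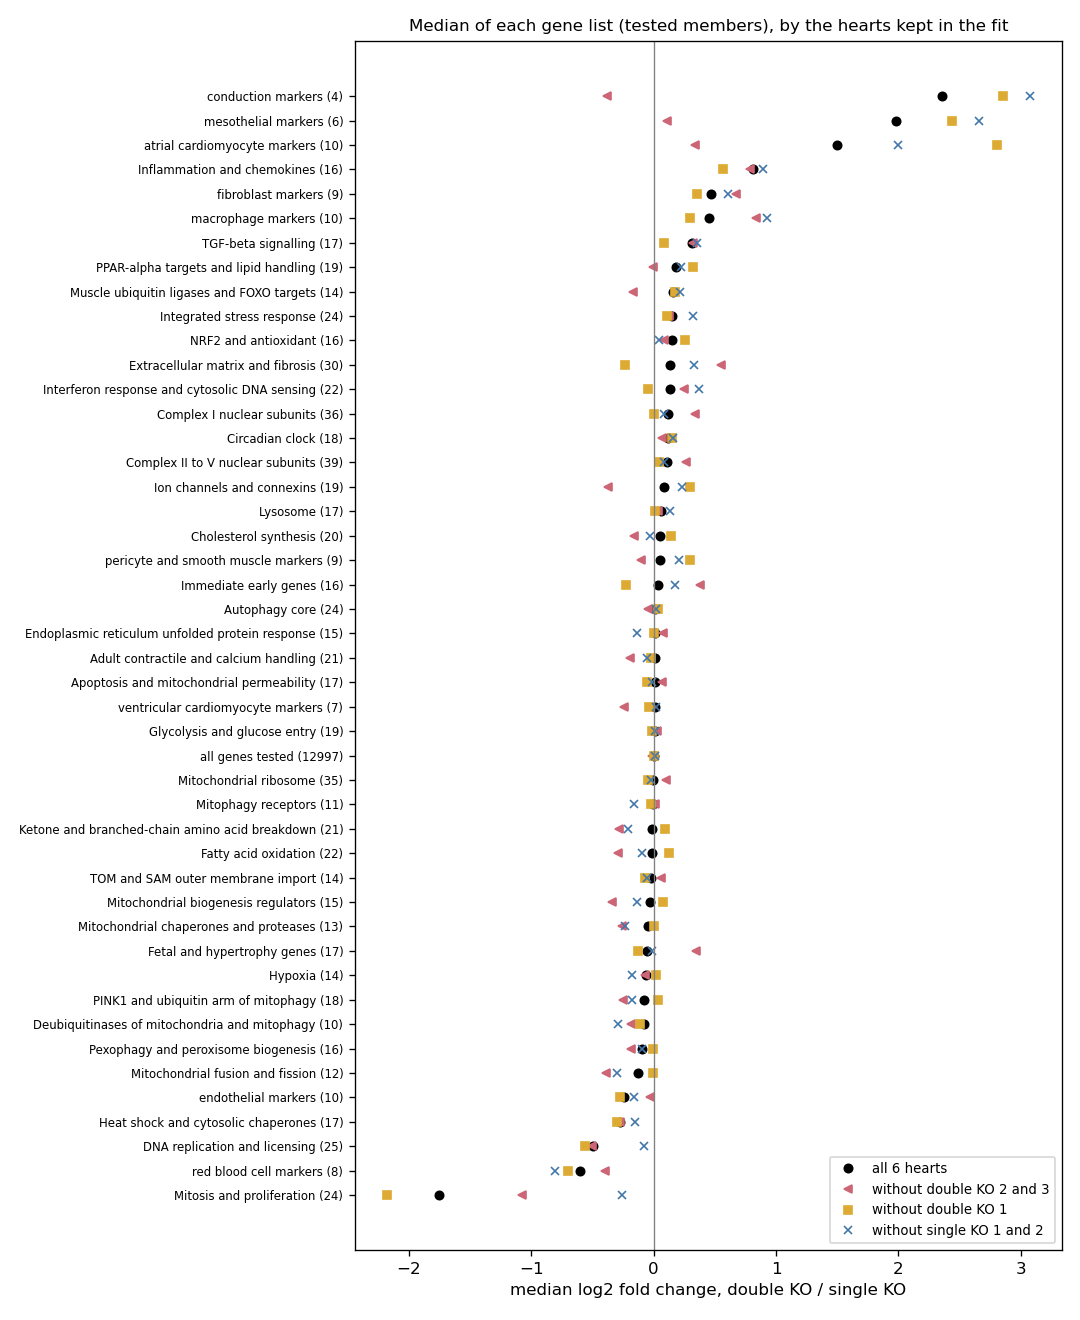
Median log2 fold change of each gene list (tested members in parentheses), double KO over single KO, for all 6 hearts (black circles), with double KO replicates 2 and 3 left out (red triangles), with double KO replicate 1 left out (yellow squares) and with single KO replicates 1 and 2 left out (blue crosses). Atrial, mesothelial and conduction medians drop towards or below 0 with the red triangles, and the mitosis median goes from -1.75 to -0.25 with the blue crosses.

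Heart failure genes differed widely between hearts of the same group. Myh7, the fetal myosin gene, was at 51.6, 128 and 25.9 CPM in single KO and 350.4, 216 and 35.9 CPM in double KO hearts. For Myh7, double KO replicates 1 and 2 lay above every single KO heart, and replicate 3 lay inside the single KO range. Acta1, the skeletal actin gene that failing hearts re-express, was at 3680.5, 7844 and 4037 CPM against 9665, 1583 and 1770.0 CPM. It was lower in double KO replicates 2 and 3 and higher in replicate 1 than in every single KO heart. edgeR gave -0.26 (SE 0.63, adjusted p = 0.968), and Acta1 was called as lower without replicate 1 (-1.63, adjusted p = 0.0432), while it was 0.89 with replicate 1 alone (adjusted p = 0.213). Atp2a2, the gene of the calcium pump of the sarcoplasmic reticulum, was at 8140, 8632 and 9974 CPM against 3699, 11746 and 11501 CPM, with the same heart apart from the rest. Of 17 fetal and hypertrophy genes, 8 lay above 0 and 9 below, and the median deviation was 0.39 in double KO replicate 1 and -0.21 and -0.23 in replicates 2 and 3.

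Genes that differ with CPT2 loss were taken from the separate table, where edgeR compared 5 CPT2H-KO with 5 wild type hearts. At an adjusted p under 0.05 and a change of at least 1 on the log2 scale, 514 genes were higher (3.64%) and 448 lower (3.17%) of 14123. At the adjusted p alone edgeR called 2360 higher and 2398 lower, and with library totals in place of TMM 827 higher and 4832 lower, where the median of all genes moved to -0.27. These hearts share no library with the single and double KO hearts. Of the genes higher with CPT2 loss, 431 were tested here, and 203 lay above 0 and 228 below in double against single KO hearts, with a median of -0.02. That median was -0.19 without double KO replicate 1, 0.12 without single KO replicate 2, 0.13 with double KO replicate 1 as the sole double KO heart and 0.15 with the atrial covariate. Of the genes lower with CPT2 loss, 287 were tested, and 216 lay above 0 and 71 below, 75.3% above 0 where the share over all genes was 50.4%, with a median of 0.28. By heart the median deviation of the latter was -0.09, 0.38 and 0.39 in double KO replicates 1, 2 and 3. With replicate 1 as the sole double KO heart it was -0.13, and with the atrial covariate -0.22, so its direction turned. These genes were thus high in the double KO hearts that carry atrial transcripts. In the separate table the atrial and conduction lists had medians of -0.74 and -2.52 in CPT2H-KO over wild type hearts. The conduction genes Hcn4 (-3.85) and Cntn2 (-2.52) were among the genes lower with CPT2 loss, while Shox2 (-0.27) and Tbx3 (0.00) were not. The part of atrial tissue in this result was not tested.

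**Figure D5:**
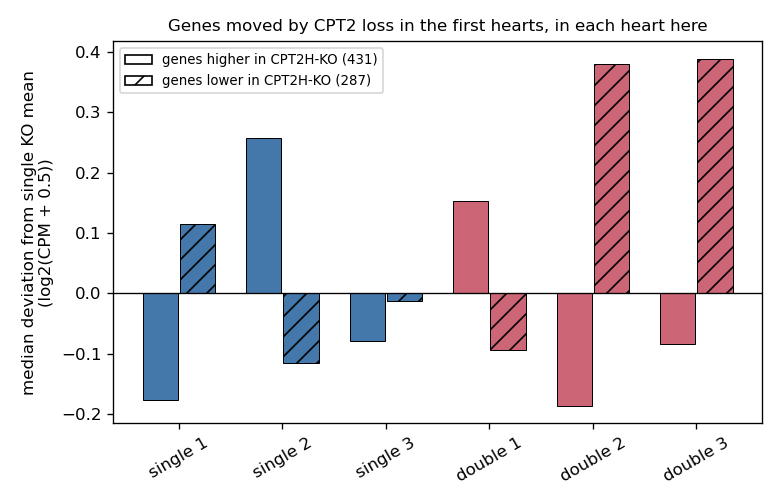
Median deviation from the single KO mean, on the log2(CPM + 0.5) scale, of genes that were higher (plain bars) or lower (hatched bars) in CPT2H-KO than in wild type hearts, in each single KO (blue) and double KO (red) heart. The hatched bars are at 0.38 and 0.39 in double KO replicates 2 and 3 and at -0.09 in replicate 1.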

How the data were processed

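Whole cardiac RNA was profiled; per the labels' protocols it was column-purified, DNase-treated, depleted of ribosomal RNA and made into stranded libraries. Per the submitters' processing notes, bcl2fastq, HISAT2 and DESeq2 1.42.0 were used with mm10. How reads were assigned to genes (program, annotation, strand) is not stated, so genes that overlap, lie antisense or have close copies are uncertain. The authors deposited raw counts per gene, whole numbers with no normalisation. The single and double KO table lists 17831 genes. A row with no gene name (1) was left out, and 25 symbols that had become dates were restored by gene identifier. Mitochondrially encoded genes were not analysed here.

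The main test was edgeR 4.0.16 (R 4.3.3) with filterByExpr, TMM, the quasi-likelihood F test and Benjamini-Hochberg adjustment over all tested genes at 0.05. CPM use TMM-scaled library sizes, log2 deviations add a pseudocount of 0.5, and each SE was derived from the fold change and the F statistic. The fit was tested on simulated data. Chi-square per degree of freedom between hearts of a group was 15.3 or more, so none was treated as a duplicate. P-values weigh the difference between groups against the spread between these hearts. With double KO replicate 1 as the sole double KO heart, that spread comes from the single KO hearts alone. Alternatives were DESeq2 1.42.0, limma-voom (limma 3.58.1), 2 scalings, 2 filters, a block on replicate number, terms for sex or atrial transcripts, and leaving out hearts.

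Named genes were Usp30 and Cpt2; the 12 smallest p each way without overlap, at an average log2 CPM of at least 1; up to 8 each way called without double KO replicate 1, by size, and by DESeq2, by p (predicted and sex-linked genes left out); up to 4 of each list by p; and fixed cardiac, stress, mitophagy and marker genes. Postn and Atp2a2 were chosen after their values were seen. The comparison, its members and the lists were chosen with earlier results of these data known. Lengths are the longest GENCODE M21 transcript of a symbol, and promoters and positions come from RefSeq (GRCm38.p6). Some genes of the lists are not reported here by name.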

Additional observations from a re-analysis of the deposited data

How the results depend on the processing

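In several settings, with 634 to 1262 genes at an unadjusted p under 0.05, the count of genes called was 0. It was 0 by edgeR under library totals, RLE scaling, no filter and a filter of 10 counts, and by limma-voom. It was also 0 by edgeR with the sex term and with single KO replicates 1 and 2 removed. It was 113 by DESeq2, 25 with the atrial covariate, 36 without both double KO hearts with atrial transcripts and 1 (Myl7) with the replicate block. Leaving out 1 heart at a time gave 0 to 114 calls: 114 without double KO replicate 1, 4 without single KO replicate 3, all of them Y-linked (Uty, Eif2s3y, Ddx3y and Kdm5d), and 0 otherwise. The replicate numbers do not pair the hearts: deviations of same-numbered hearts correlated at 0.08, -0.21 and 0.17 across genes. Usp30 kept its direction in all 17 alternatives and was called by DESeq2 (-1.18) and, among fits that leave out 1 heart, without double KO replicate 1 (-1.24). Leaving out 1 heart at a time moved its log2 fold change between -1.26 and -1.03. Over the named genes, 121 refitted values changed sign without a call in either fit, and 3491 kept their sign without a call. A further 91 gene values gained a call, each with the sign of the main fit. The main fit called 0 genes, so it held no call that could be lost or reversed. Over the lists, 69 refitted medians moved beyond the SD between hearts of a group, and 696 did not. The count for CPT2H-KO against wild type hearts was 4758, and 3682 to 4787 with 1 heart left out. With 3 hearts in each group and 11067969 to 13532716 counts per heart, small changes and low genes were not detectable. The fit without both atrial hearts weighs double KO replicate 1 alone, and the atrial covariate leaves the estimate largely to that heart. The sex term compares the double KO hearts with single KO replicate 3 alone. The cause of these shifts was not tested.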
